A study of Mus musculus with 6 samples.

Results

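Homologous recombination and Fanconi repair genes were described in cultured mouse bone marrow B cells with and without deletion of Prmt5, which encodes an enzyme that methylates arginines of Sm splicing proteins and other targets. The set held 39 genes, chosen by name, and each matched 1 single-gene row of the 21307 rows in the authors' table. All 39 were compared, among the 10856 rows whose values were above 0 in both conditions and averaged 1 FPKM or more. FPKM counts sequenced fragments relative to transcript length and library size, so levels can be set side by side between genes.

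All cells came from pre-tumoral mice aged 6 to 8 weeks on a C57BL/6 x 129S1/SvlmJ background. Every library carried the E-mu-myc transgene, which drives MYC from an immunoglobulin enhancer, together with floxed Prmt5 alleles and a tamoxifen-inducible Cre (E-mu-myc;Prmt5F/FCreER). Cells grew with 5 ng/ul interleukin 7. The 4-OHT group received 50 nM 4-hydroxytamoxifen for 24 h and the EtOH group received ethanol, after which both were washed and grown for 5 more days. Each group had 3 libraries, titled PT (4-OHT) and WT (EtOH), and the design text speaks of wild-type against pre-tumoral animals, while the genotype label was the same in all 6. The groups here follow the treatment labels and the condition names in the table, which divide the libraries as the titles do. The sources used here do not state how many mice or separate cultures the libraries stand for, nor which promoter drives the Cre. No group with Cre active on intact Prmt5 was analysed here, so 4-OHT, Cre activity and loss of Prmt5 cannot be told apart.

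The table gives 1 value per gene and condition. No difference below therefore has a replicate check, an error or a p-value, and each is described by size. The log2 ratio is that of (FPKM + 1) in 4-OHT over (FPKM + 1) in EtOH, which understates differences of low genes, and folds are on the same scale. Prmt5 itself stood at 41.6 FPKM in EtOH and 5.71 FPKM in 4-OHT, and Myc at 402 and 213 FPKM. All 14 pro-B and pre-B cell markers were present in both conditions and lower in 4-OHT, with a summed level of 2429 FPKM in EtOH and 1199 FPKM in 4-OHT. In the 6 lists of markers of other cells, each compared gene was higher in 4-OHT. The summed level of 9 neutrophil markers was 366 and 3483 FPKM, that of 10 stromal and endothelial markers 48.9 and 576 FPKM, and that of 6 platelet markers 231 and 867 FPKM. Of the monocyte and macrophage markers, 9 were compared, with summed levels of 697 and 1523 FPKM, and Lyz2, not compared, was listed at 3835 FPKM in EtOH and at 0 in 4-OHT. With Lyz2 and all other listed genes of that type, the sum was 4532 FPKM in EtOH and 1524 FPKM in 4-OHT. Klf1, an erythroid marker below the 1 FPKM minimum, was slightly lower in 4-OHT, at 0.157 and 0.145 FPKM. Erythroid markers (5 in the table) summed to 0.657 and 2.48 FPKM and T and NK cell markers (8) to 6.19 and 24.2 FPKM. The part of this shift in the ratios of the repair genes was not tested, and fewer B cells and less RNA per B cell cannot be told apart in bulk RNA.

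Cells repair a broken chromosome without loss of sequence by homologous recombination. The kinases ATM and ATR sense breaks and stalled forks, nucleases trim the ends to single strands, and BRCA1, PALB2, BRCA2 and further mediators prepare the strand for pairing with the sister chromatid. The Fanconi anaemia proteins act at crosslinked DNA: a core complex attaches ubiquitin to FANCD2 and FANCI, which directs incision and hands the break to recombination. Both pathways work mainly in S and G2 phase, and many of their genes are transcribed with the cell cycle through E2F factors. Fast-dividing lymphoid progenitors depend on them, and mutations in several cause cancer predisposition or bone marrow failure.

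Promoter sequences are shown as a description, since E2F is the textbook regulator of many of these genes. Whether E2F has a part in their ratios was not tested. RefSeq promoter windows of build GRCm38.p6, from 250 bases before to 50 bases after the start, were matched by symbol for 31 of 39 genes (33 windows). The E2F word was any of TTTCCCGC, TTTGGCGC, TTTCGCGC or TTTGCCGC on either strand. It was found in 7 of the 31 genes (22.6%), against 2.61% of all 27025 genes with a window and 4.94% of the 7887 with a window that were also compared here. The stretches of 60 bases that hold it follow, 5′ to 3′ on the strand of the gene, with the word in capitals (as its reverse complement where it lies on the other strand).
Brca2, chr5:150522427-150522486, plus strand: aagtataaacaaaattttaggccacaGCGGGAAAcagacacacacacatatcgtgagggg
Bard1, chr1:71103148-71103207, minus strand: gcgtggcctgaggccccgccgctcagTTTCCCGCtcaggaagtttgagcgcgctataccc
Rad51c, chr11:87404462-87404521, minus strand: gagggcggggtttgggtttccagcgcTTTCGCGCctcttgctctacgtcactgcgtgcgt
Rad51c, chr11:87404926-87404985, minus strand: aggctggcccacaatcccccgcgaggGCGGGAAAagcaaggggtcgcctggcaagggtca
Topbp1, chr9:103305172-103305231, plus strand: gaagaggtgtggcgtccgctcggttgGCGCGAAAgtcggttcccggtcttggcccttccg
Chek2, chr5:110839805-110839864, plus strand: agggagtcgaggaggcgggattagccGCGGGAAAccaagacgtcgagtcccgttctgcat
Mdc1, chr17:35841456-35841515, plus strand: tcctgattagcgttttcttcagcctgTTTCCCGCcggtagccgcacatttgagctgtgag
Fancg, chr4:43010320-43010379, minus strand: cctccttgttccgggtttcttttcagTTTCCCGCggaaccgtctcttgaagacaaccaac
Rad51c has 2 windows, each with a word of its own. A match describes letters in this window and does not show a bound site.

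The CCAAT box (CCAAT, either strand) was more frequent, in 18 of the 31 genes (58.1%) against 43.2% of the compared genes with a window. Windows of Xrcc3, Brip1 and Fancf held several copies. The CHR element (TTTGAA, either strand), common in mitotic genes, was found in Bard1 and Eme1 alone, 6.45% of the 31 against 14.2% of compared genes. In the list of 24 mitotic genes, by contrast, 14 of 20 with a window held CHR. The E-box CACGTG, the word MYC binds, was also found in 2 genes, Eme1 and Slx4, 6.45% against 12.3%. None of these words contains another. The window of Eme1, which enters the CHR and E-box counts, was the only one not found in a transcript of its gene.

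**Figure D1:**
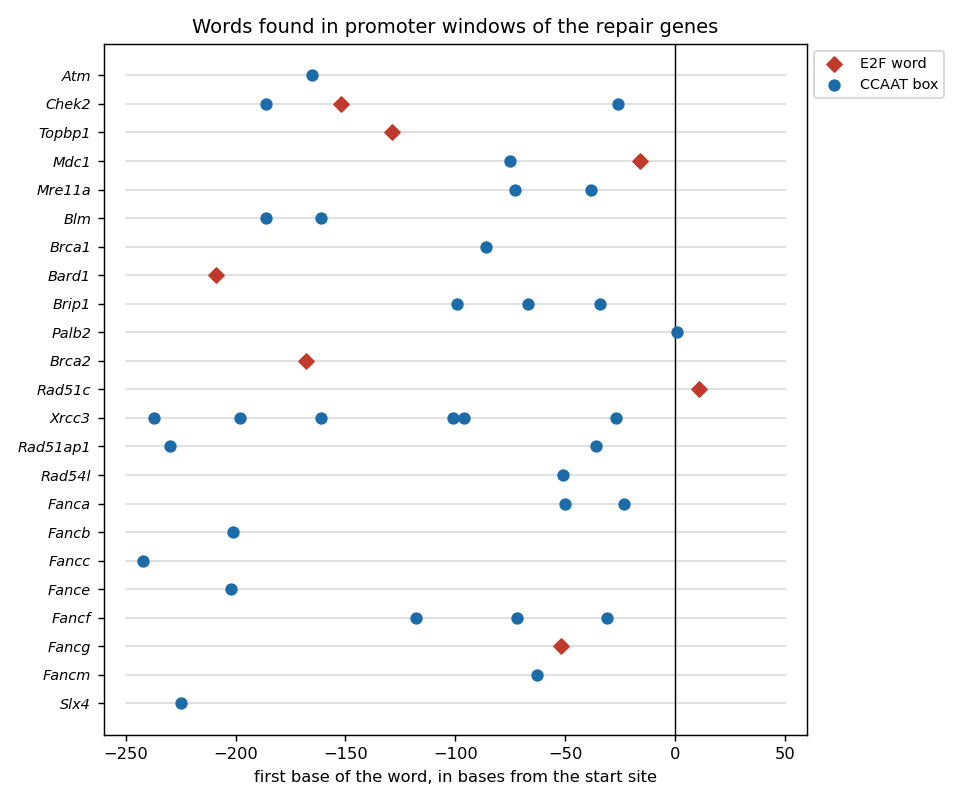
Positions of E2F words (diamonds) and CCAAT boxes (circles) in the promoter windows of 23 repair genes that hold either, in bases from the start base (counted as 0); for genes with 2 windows the one with the lower coordinate is drawn. E2F words lie from -209 in Bard1 to 11 in Rad51c, with no shared position.

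Most repair genes were lower in 4-OHT, most of them by less than 2-fold, and the size differed between genes and roles. Of 39, 38 had a lower value (97.4%), against 55.1% of all compared rows, and 1 had a higher value, against 44.9%. At least 1.5-fold lower were 19 (48.7%), against 12.8% of all rows, and none was 1.5-fold higher, against 19.5%. Only Brca2 was at least 2-fold lower, 2.56% of the genes and thus near the background of 2.58%, and none was 2-fold higher, against 10.4%. In the authors' deposited table, without a pseudocount, 5 were past 2-fold (Brca2, Xrcc2, Fancl, Rad51c and Atm), against 4.44% of all rows. The median log2 ratio was -0.58 (1.49-fold lower), against -0.07 for all compared rows. Against the 8050 rows with a mean in the same range as these genes (1.65 to 32.9 FPKM), the shares were 55.0%, 12.3% and 2.57% and the median was -0.06. The summed level of the 39 genes was 337 FPKM in EtOH and 222 FPKM in 4-OHT.

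**Figure D2:**
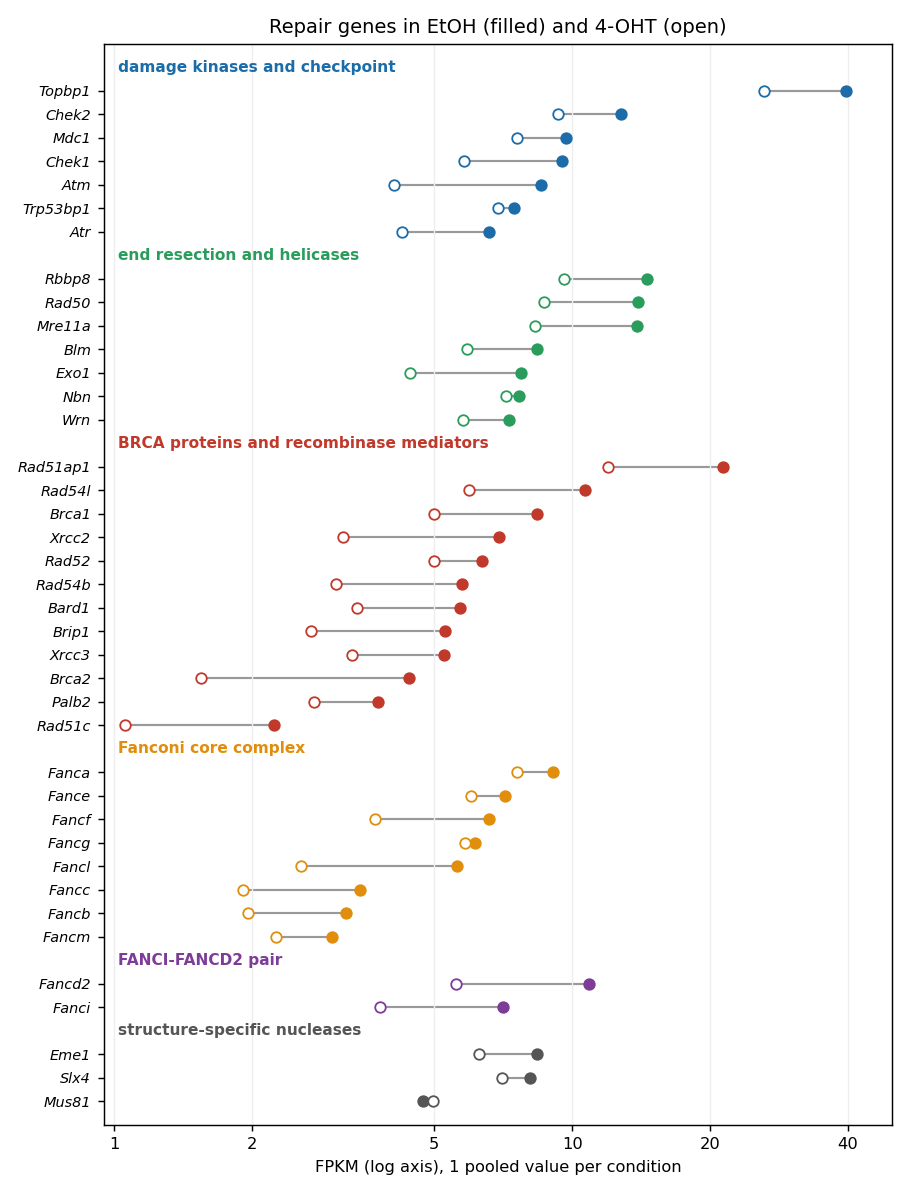
FPKM of the 39 repair genes (log axis), grouped by role, with EtOH as filled and 4-OHT as open circles; each circle is 1 pooled value with no error. The open circle lies left of the filled one for all genes but Mus81 (4.74 and 4.98 FPKM), and the longest line is that of Brca2 (4.40 and 1.54 FPKM).

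Among the damage kinases and checkpoint genes, 7 of 7 were lower, with a median log2 ratio of -0.53, and 2 of them at least 1.5-fold. Of all compared rows, 55.1% were lower and 12.8% at least 1.5-fold lower. Topbp1, which encodes the activator of ATR at stalled forks, had the highest level of all 39 genes in both conditions (chr9:103207657-103252757 on mm9, the build of all gene loci below). Its values were 39.6 FPKM in EtOH and 26.2 FPKM in 4-OHT, a log2 ratio of -0.58. Atm, the kinase gene for double-strand breaks (chr9:53245227-53344776), had the lowest ratio of this group, at 8.54 and 4.07 FPKM (-0.91, 1.88-fold lower). Atr, its counterpart for single-stranded DNA, stood at 6.60 and 4.26 FPKM (-0.53). The level of Atm was thus 1.29 times that of Atr in EtOH and 0.957 times in 4-OHT. The values in 4-OHT are close and have no error, so their order there is not known. Of the effector kinases, Chek1, which acts below ATR, stood at 9.50 and 5.82 FPKM (-0.62). Chek2, which acts below ATM, stood at 12.8 and 9.32 FPKM (-0.42). The mediators that gather at the break differed less. Mdc1, which binds the phosphorylated histone H2AX, stood at 9.70 and 7.58 FPKM (-0.32). Trp53bp1, which shields ends from trimming and favours end joining, stood at 7.47 and 6.90 FPKM (-0.10), close to the median of all rows.

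All 7 genes of end resection and the RecQ helicases were lower, with a median of -0.56 and 3 of them at least 1.5-fold. The shares of all compared rows were 55.1% and 12.8%. The MRE11-RAD50-NBS1 complex, which senses and trims ends, did not have equal ratios. Mre11a stood at 13.8 FPKM in EtOH and 8.30 FPKM in 4-OHT (-0.67). Rad50 stood at 13.9 and 8.70 FPKM (-0.62). Nbn, which encodes the NBS1 subunit that recruits ATM, was near equal at 7.64 and 7.18 FPKM (-0.08). Mre11a had nearly the level of Rad50 in both conditions (0.997 and 0.954 times), whereas Rad50 was 1.82 times Nbn in EtOH and 1.21 times in 4-OHT. Rbbp8 encodes CtIP, the cofactor that starts resection, and stood at 14.6 and 9.58 FPKM (-0.56), rank 3 in level in both conditions. Exo1, the exonuclease gene of long-range resection, had the lowest ratio of the group, at 7.73 and 4.44 FPKM (-0.68). Of the helicase genes, Blm stood at 8.38 and 5.90 FPKM (-0.44) and Wrn at 7.27 and 5.76 FPKM (-0.29).

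The BRCA genes and recombinase mediators had the lowest median of the 4 roles with more than 3 genes, at -0.69. All 12 were lower, against 55.1% of all rows, and 9 of them at least 1.5-fold, against 12.8%. Brca2, whose protein acts on resected DNA (chr5:151325198-151372324), had the lowest ratio of all 39, at 4.40 FPKM in EtOH and 1.54 FPKM in 4-OHT (-1.09, 2.12-fold lower). The authors' deposited table, which adds no pseudocount, lists -1.51 for it. Palb2, which joins BRCA2 to BRCA1, differed less, at 3.78 and 2.73 FPKM (-0.36). Palb2 therefore stood below Brca2 in EtOH (0.859 times) and above it in 4-OHT (1.77 times). Both genes are low in level and their values have no error, so their true order is not known. Brca1 (chr11:101350078-101413269) and its obligate partner Bard1, which form a ubiquitin ligase, kept their proportion. Brca1 stood at 8.40 and 4.98 FPKM (-0.65). Bard1 stood at 5.69 and 3.39 FPKM (-0.61), so that Brca1 was 1.48 times Bard1 in EtOH and 1.47 times in 4-OHT. Brip1, a helicase gene of the BRCA1 complex also known as FANCJ, stood at 5.27 and 2.70 FPKM (-0.76).

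The other mediators were mostly low to moderate in level. Rad51c had the lowest level of the 39 genes in both conditions, at 2.24 and 1.06 FPKM (-0.65), and its ratio in the authors' deposited table is -1.08. Xrcc2 (chr5:25195634-25211615) had the second lowest ratio of all, at 6.93 and 3.16 FPKM (-0.93). Xrcc3 stood at 5.25 and 3.30 FPKM (-0.54). Rad51ap1, whose protein stimulates strand pairing, was second in level after Topbp1 and stood at 21.4 and 11.95 FPKM (-0.79, 1.73-fold lower). The translocase genes Rad54l, at 10.7 and 5.97 FPKM (-0.74), and Rad54b, at 5.74 and 3.05 FPKM (-0.73), had nearly the same ratio. Rad52, the strand annealing gene, had the ratio closest to 0 in this role, at 6.36 and 5.00 FPKM (-0.30).

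In the Fanconi core complex all 8 genes were lower, against 55.1% of all rows, and 3 of them at least 1.5-fold, against 12.8%. The median was -0.40, but the ratios were spread widely. Fancl, which encodes the ubiquitin ligase subunit, had the lowest, at 5.61 FPKM in EtOH and 2.56 FPKM in 4-OHT (-0.89, 1.86-fold lower). Fancf, an adaptor gene, stood at 6.58 and 3.70 FPKM (-0.69). Fancc stood at 3.45 and 1.92 FPKM (-0.61). The ligase partner gene Fancb, on the X chromosome, stood at 3.21 and 1.96 FPKM (-0.51), and Fancm, the DNA translocase gene, at 2.99 and 2.26 FPKM (-0.29). These are among the lowest levels in the set, where the pseudocount weighs most. Fanca and Fance differed little, at 9.09 and 7.56 FPKM (-0.24) and at 7.12 and 6.02 FPKM (-0.21). Fancg, whose window holds an E2F word, was near equal, at 6.15 and 5.84 FPKM (-0.06), and its sign turned under one scaling. Fancg, Fance and Fanca had the 3 ratios closest to 0 in this role.

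The substrates of the core complex differed more than its median gene. Fancd2 (chr6:113481676-113546279) stood at 10.9 FPKM in EtOH and 5.57 FPKM in 4-OHT (-0.85, 1.81-fold lower). Its partner Fanci stood at 7.08 and 3.81 FPKM (-0.75). The level of Fancd2 was 1.54 times that of Fanci in EtOH and 1.46 times in 4-OHT, so the pair kept close to its proportion.

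The genes of the nucleases that cut branched DNA stood nearest to the median of all rows, at -0.17, and none of the 3 was 1.5-fold different. Of all compared rows, 12.8% were at least 1.5-fold lower and 19.5% at least 1.5-fold higher. Eme1, the partner subunit of MUS81, stood at 8.39 and 6.25 FPKM (-0.37). Slx4, the scaffold of several nucleases, stood at 8.07 and 7.04 FPKM (-0.17). Mus81 (chr19:5482840-5488336), the catalytic subunit, was the single gene with a higher value, at 4.74 and 4.98 FPKM (0.06), and quantile normalization turned its sign. Eme1 was 1.77 times Mus81 in EtOH and 1.26 times in 4-OHT.

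The order of levels was largely kept, with a Spearman correlation of 0.879 across the 39 genes (a description, since the genes share 2 pooled values). Ranks and ratios come from the same values, so moves within the order are no separate result. Brca2, with the lowest ratio, went from rank 34 to 38, while Rad51ap1 stayed at 2 and Rad51c at 39. Larger moves were seen in other genes. Fancd2 went from rank 7 in EtOH to 19 in 4-OHT and Atm from 12 to 25. Nbn went from 18 to 9, Trp53bp1 from 19 to 11, Fancg from 27 to 16 and Mus81 from 33 to 22. Neighbours in this order cannot be ranked beyond their error, which is not known. The 1.5-fold line (-0.58 in log2) runs through the middle of the set: Bard1 (-0.61) and Fancc (-0.61) lay just past it, and Topbp1 (-0.58, 1.49-fold lower) and Rbbp8 (-0.56) just short of it.

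**Figure D3:**
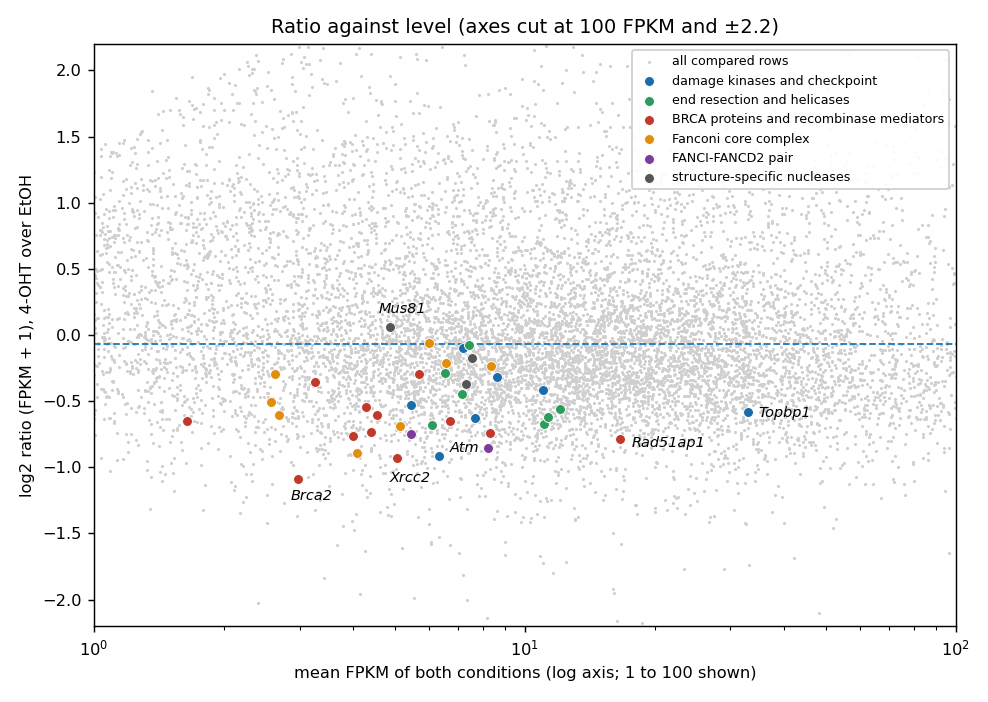
Log2 ratio against mean FPKM (log axis) for the repair genes, coloured by role, over all compared rows in grey; the dashed line is the median of all rows (-0.07), and rows above 100 FPKM or beyond 2.2 in log2 lie outside the plot. All coloured points but 2, Mus81 and Fancg, lie below the line, at low and high levels alike.

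The ratios of repair genes with and without the E2F word had close medians and overlapped. The median was -0.58 for the 7 with the word, which range from Brca2 (-1.09) to Fancg (-0.06), and -0.54 for the 24 without it. For the CCAAT box the medians were -0.52 in 18 genes and -0.58 in 13. The 8 genes without a window are left out of these groups: Rad50, Nbn, Rbbp8, Exo1, Wrn, Xrcc2, Rad54b and Fancd2. A gene without the word lacks only the listed words in its window, which does not show that it lacks an E2F site. These values are descriptions and have no test.

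Other genes of the same pathways, taken from lists by function, also tended lower. Of 70 listed, 60 were compared, and their median was -0.45. Lower were 54 (90%), against 55.1% of all rows, 17 of them at least 1.5-fold, against 12.8% of all rows. At least 1.5-fold higher was 1, against 19.5% of all rows. In the recombination list, 20 of 22 were lower (90.9%, median -0.43). Recql, a RecQ helicase gene, had the lowest ratio there, at 17.1 and 8.46 FPKM (-0.93). The single-strand binding genes Rpa3 (55.0 and 31.3 FPKM, -0.80) and Rpa2 (39.9 and 29.5 FPKM, -0.42) were the most abundant. Fbxo18, which encodes the helicase FBH1, was highest, at 14.2 and 17.1 FPKM (0.25).

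In the list of further Fanconi genes, 11 of 14 were lower (78.6%, against 55.1% of all rows), with a median of -0.37. Usp1, the enzyme gene that removes ubiquitin from FANCD2, was lowest in ratio, at 53.1 and 28.7 FPKM (-0.86), and Stra13, the gene of a FANCM-associated histone-fold protein, at 50.7 and 43.8 FPKM (-0.21). Dclre1a, a crosslink nuclease gene, was higher at 1.11 and 2.47 FPKM (0.72). In the checkpoint list, 23 of 24 were lower (95.8%, median -0.54). H2afx, the histone gene whose phosphorylated product marks breaks, was both the most abundant and the lowest in ratio, at 107 and 45.6 FPKM (-1.21, 2.31-fold lower). The cohesin gene Smc1a stood at 60.3 and 40.7 FPKM (-0.56), and Rad17, the clamp loader gene of the ATR checkpoint, was highest at 11.5 and 12.2 FPKM (0.08).

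The nearest other pathways were set beside these values, with no test of the difference. Among the end joining and V(D)J genes, 11 of 16 were lower (68.75%, against 55.1% of all rows) and the median was -0.22. They ranged from the KU80 gene Xrcc5 (11.6 and 5.66 FPKM, -0.92) to the polymerase gene Polm (8.67 and 11.7 FPKM, 0.40). The most abundant were the KU70 gene Xrcc6 (229 and 131 FPKM, -0.80) and Parp1 (104 and 67.1 FPKM, -0.62). All 23 origin licensing and MCM genes were lower (median -0.51), from Mcm7 (142 and 62.7 FPKM, -1.17) to Orc4 (11.99 and 11.7 FPKM, -0.03), with Mcm6 at 109 and 76.1 FPKM (-0.51). All 23 replicative polymerase and clamp genes were lower (median -0.71), from Pole (26.04 and 10.1 FPKM, -1.29) to Pold4 (32.7 and 32.3 FPKM, -0.02). The most abundant were Pcna (313 and 232 FPKM, -0.43) and Rfc2 (56.5 and 39.8 FPKM, -0.49). All 24 mitotic genes were lower (median -0.77), from Top2a (131 and 57.2 FPKM, -1.18) to Aurka (16.8 and 16.7 FPKM, -0.01), with Cenpa at 91.1 and 56.5 FPKM (-0.68). The repair median of -0.58 thus lay between the medians of the licensing and the polymerase lists. E2F words were found in 9 of 18 licensing genes with a window, in 7 of 20 polymerase genes, in 1 of 14 end joining genes and in 1 of 20 mitotic genes. In the further lists of the repair pathways they were found in 3 of 20 recombination genes, 3 of 17 checkpoint genes and 0 of 9 Fanconi genes.

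**Figure D4:**
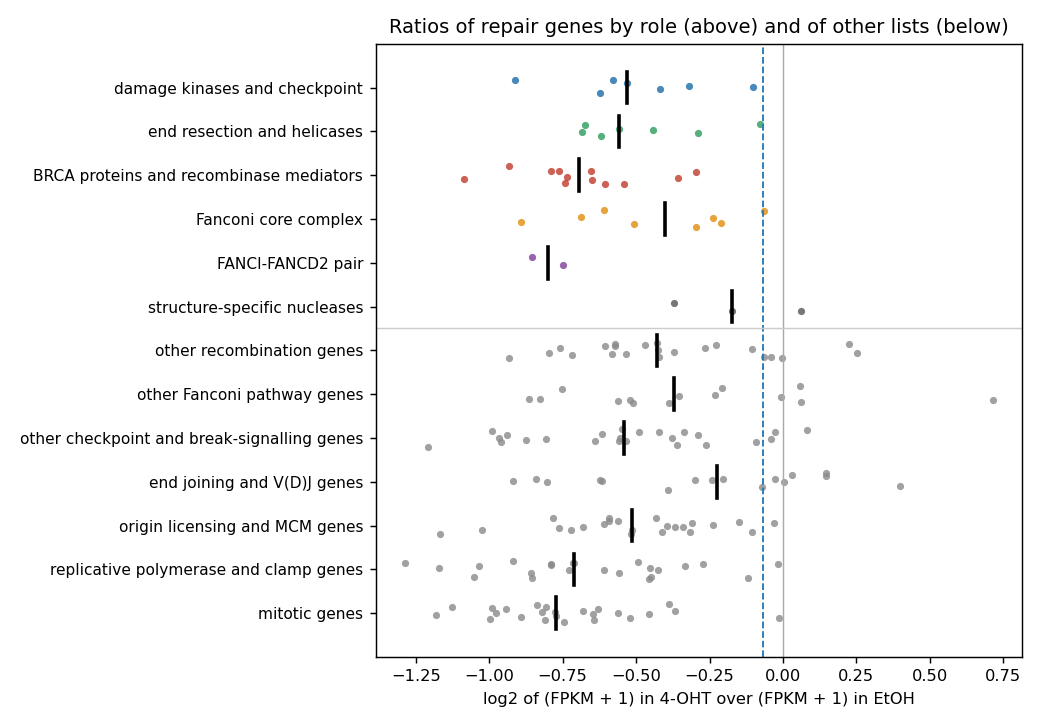
Log2 ratios of the repair genes by role (coloured, above) and of 7 other gene lists (grey, below); each point is 1 gene, black bars are medians, the dashed line is the median of all compared rows (-0.07) and the solid line is 0. The role medians run from -0.80 for Fancd2 and Fanci and -0.69 for the mediators to -0.17 for the nucleases.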

How the data were processed

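Per the labels' protocols, RNA was isolated with Trizol and Purelink columns and sequenced as paired-end TruSeq libraries. The submitters' processing notes name CASAVA, TopHat2 2.0.9, Cufflinks 2.1.1 and genome build mm9. The authors deposited 1 FPKM value per gene and condition, and the sources used here do not state how they combined or scaled the 3 libraries. Their log2 fold changes, also deposited, equal the log2 of 4-OHT over EtOH within 0.01 in all 15756 rows above 0 in both. The depth of the libraries is unknown, and intervals that need it were left out.

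Locus lengths equalled RefSeq gene lengths in 6341 of 18851 rows with starts counted from 0 and in 437 with starts from 1, so 1 was added to starts. The planned limma model could not be run on pooled values, so differences were described by size with a pseudocount of 1 FPKM, using Python 3.11.15, numpy 2.4.6, pandas 2.3.3, scipy 1.17.1 and matplotlib 3.10.9; the calculation was tested on simulated data. Of 33 promoter windows, 32 were found in the sense of the gene in GENCODE M21 transcripts, the exception being that of Eme1. The genes and lists were chosen with earlier results of these data known. Named genes were all 39, and in each other list the 2 most abundant and those with the lowest and highest ratio. A row first listed under an older name of Faap20 was dropped because RefSeq gives that name to another gene. One listed gene of the pathway is not reported here. Where a gene shares a locus with another row (8 of 39), reads may be split between them.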

Additional observations from a re-analysis of the deposited data

How the results depend on the processing

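The count of genes lower in 4-OHT was 38 as reported and 37 to 39 of 39 under the alternatives that compared them all. With a minimum mean of 5 FPKM, 27 of 27 were lower. The share lower over all compared rows ran from 49.9% to 58.7%, or 36.0% with no filter on low values. The count at least 2-fold lower, 1 as reported, was 5 when the authors' deposited fold changes were used (4.44% of all rows). It was likewise 5 at a pseudocount of 0.1 (4.21% of all rows) and 2 with a pseudocount of 0.5 (3.28%). Quantile normalization gave 3 (3.39% of all rows), and the minimum of 5 FPKM, which leaves out Brca2, gave 0 (2.68%). With that minimum the count at least 1.5-fold lower was 12, where fewer genes were compared (13.5% of all rows). Under the others it ran from 15 to 24, and the share of all rows also differed between settings. The count was 15 under median-of-ratios scaling over compared rows (9.88% of all rows). It was 24 at a pseudocount of 0.1 (15.8%) and also with the authors' deposited fold changes. With no filter on low values it was 19 (6.69%). The median ran from -0.68 to -0.51. Mus81 turned to -0.0330 under quantile normalization. Fancg turned to 0.00190 under median-of-ratios scaling with factors taken over compared rows, an alternative chosen after the data were seen. No paired analysis was possible because each condition has a single deposited value, and the replicate block, limma and leaving out each library were not run. Ratios of genes at a few FPKM moved most with the pseudocount, and the precision of the ratios is not known.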

Other observations

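Gene structure was set beside the ratios as a description. Across the 39 repair genes the Spearman correlation of the log2 ratio with the length of the longest coding transcript was -0.17, and with its number of exons -0.02. Across the 9607 compared single-gene rows with these measures, the correlations were -0.02 and -0.05. The genes differ widely in both: Atm has 62 exons and a ratio of -0.91, Xrcc2 has 3 exons and a ratio of -0.93, and Fancf has 1 exon and a ratio of -0.69, while Fanca has 43 exons and a ratio of -0.24. Lengths and exons are those of GENCODE M21, and the genes share the same pooled values, so no p-value is given.

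In the table, 8 repair genes share a locus with another row. The neighbour of Atr was below 0.1 FPKM in both conditions and is not compared. Of the other 7 neighbours, 6 had log2 ratios between -0.04 and 0.15. Vrk2, beside Fancl, stood at 8.76 FPKM in EtOH and 8.501 FPKM in 4-OHT (log2 ratio -0.04), Polg, beside Fanci, at 22.7 and 24.5 FPKM (0.11), and Lrrc41, beside Rad54l, at 14.1 and 13.9 FPKM (-0.02). Klc1, beside Xrcc3, stood at 45.6 and 31.9 FPKM (-0.50), near the ratio of Xrcc3 itself (-0.54).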
